A study of Mus musculus with 21 samples.

Results

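The genes described here are 32 mouse genes of cholesterol and fatty acid synthesis and of the lipid droplet. They were picked by gene symbol, and each of the 32 was found once among 31553 features in the Neuro2a table and once among 39008 in the table of cortical nuclei. They comprise 7 genes of the mevalonate steps, 10 of the steps from squalene to cholesterol, 4 of sterol sensing and transport, 8 of fatty acid synthesis, elongation and desaturation, and 3 of the lipid droplet and phosphatidate. The first 17 are called the sterol steps below.

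Cells build cholesterol from acetyl-CoA. The mevalonate steps lead to farnesyl diphosphate, squalene is formed from it and closed to lanosterol, and a series of demethylations, isomerisations and reductions gives cholesterol. The transcription factors encoded by Srebf2 and Srebf1 (SREBP proteins) are held in the endoplasmic reticulum by INSIG proteins while sterol is plentiful, and when it falls they are cleaved, enter the nucleus and activate genes of sterol and fatty acid synthesis. Neurons make cholesterol during growth and in the adult brain receive much of it from astrocytes, while perilipins coat the droplets in which cells store neutral lipid.

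RNA was measured by polyA RNA sequencing in 21 samples. Of these, 12 were libraries of Neuro2a, a mouse neuroblastoma line. For 6 of them cells were given 750 ng of a guide RNA plasmid with 750 ng of a plasmid for sadCas9-VP64 (CRISPRa). The latter encodes a catalytically dead Cas9 fused to a transcriptional activator. For the other 6 libraries cells were given the sadCas9-VP64 plasmid without a guide (VP64 only). The other 9 samples were nuclei sorted for the neuronal protein NeuN from 200 mg of cortex of mice on a C57BL/6J background: 3 wild type (WT), 3 Scn2a+/- (Het) and 3 Scn2a+/- injected with rAAV for sadCas9-VP64 and an Scn2a guide RNA (Het CRISPRa). Per the labels' protocols, 500 nL of rAAV went into the medial prefrontal cortex and mice were used 4 weeks later, so that the sorted cortex can hold nuclei that the vector did not reach. Neither the age or sex of the mice, nor any injection of WT and Het mice, nor the guide's target in Neuro2a is given in the labels. The Neuro2a library names carry a 7 (replicates 1 to 3 of both groups) or an 8 (replicates 4 to 6), called library sets 7 and 8 here, and the labels do not say what the number stands for. Whether replicates were separate cultures is likewise not stated, so p-values reflect only how far the sampled libraries scatter, and that scatter may be technical.

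Levels are CPM, counts per M reads (M, 1e+06) as deposited, and the depth implied by the value of 1 read was 15.5 to 21.0 M reads per library in Neuro2a and 15.5 to 20.1 M in the nuclei. Scn2a, the gene the guide of the mice targets, was at 4.09 to 5.33 CPM in the 6 CRISPRa libraries and at 2.84 to 3.46 CPM in the 6 VP64-only libraries of Neuro2a. In nuclei it was at 229.5 to 266.0 CPM in WT, 203 to 260.3 CPM in Het and 258 to 291 CPM in Het CRISPRa. The sadCas9-VP64 transcript averaged 1977 CPM with the guide and 2549.6 CPM without it in set 7, and 599.8 and 349 CPM in set 8. The mCherry-puro transcript averaged 5296 CPM in CRISPRa of set 7 and 1727 CPM in CRISPRa of set 8 and was listed at 0 in every VP64-only library, so the groups differ by all of the guide plasmid and not by the guide alone. Among defining markers, Rbfox3, which encodes NeuN, was at 260.3 to 358 CPM and Slc17a7 of excitatory neurons at 895 to 1066 CPM in the nuclei, against at most 1.67 CPM for Aqp4 of astrocytes and 1.54 CPM for Mog of oligodendrocytes. Neuro2a held Hand2 (324 to 380.1 CPM), a transcription factor of sympathetic neuroblasts, and Rbfox3 at no more than 0.382 CPM.

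Per kilobase of exon, Scd2 had the highest level of the 32 in Neuro2a, 280.5 CPM per kb as a mean of 12 libraries, and Scd1, which encodes a desaturase of the same family, the lowest, 1.53 CPM per kb. Srebf2 (72.8 CPM per kb), Acly (70.4) and Insig1 (67.7) followed Scd2 in this mean, but in CRISPRa of set 7 the order after Scd2 was Insig1, Acly and Srebf2. In the nuclei Pmvk (20.5 CPM per kb), Srebf2 (17.8) and Fdft1 (16.1) stood at the top. Plin2 was close to absent there, 0.0444 CPM per kb and at most 0.31 CPM in any of the 9 libraries, and Plin3, Stard4 and Scd1 were each below 1 CPM per kb. Exon lengths were those of a GRCm38 annotation, an older build than that of the files, and the nuclei carry nuclear RNA alone, so levels were not tested between the tables.

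The effect of the guide plasmid over all 12 Neuro2a libraries was tested with limma on log2(CPM + 0.5), and p-values were adjusted over 14398 genes. Of the 32 genes, 2 were higher and 0 lower at an adjusted p under 0.05, against 10% of all tested genes higher and 5.02% lower. Over all genes 4364 had an unadjusted p under 0.05. Both genes that rose, Plin2 and Plin3, encode lipid droplet coat proteins. The median change of the 32 was 0.17 on the log2 scale and that of all tested genes 0.06.

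Without the guide plasmid Plin2 was at 80.7, 84.8 and 73.0 CPM in set 7, and with it at 157, 156 and 168 CPM. Set 8 had 94.5, 86.5 and 81.2 CPM without and 160.3, 185 and 180.2 CPM with the guide plasmid. No VP64-only library of either set reached the lowest CRISPRa library, the CRISPRa mean was 2.01 times as high, and the log2 change was 1.00 (SE 0.07, adjusted p = 2.47e-06). The change was 1.01 in set 7 and 1.00 in set 8, and the difference between these was -0.01 (SE 0.09, adjusted p = 0.961).

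Plin3, a second perilipin, which moves from the cytosol to nascent droplets, was at 56.4, 58.4 and 51.9 CPM in VP64 only and 68.7, 75.7 and 68.9 CPM in CRISPRa of set 7. Its levels in set 8 were 63.3, 64.1 and 69.6 CPM and 83.0, 84.4 and 84.1 CPM. The 2 groups separated within each set and overlapped over both sets, and the change over both was 0.35 (SE 0.08, adjusted p = 0.0114). Within the sets it was 0.35 and 0.35. Rescaling the libraries by the median of ratios, which moves the median change of all genes from 0.06 to -0.00, put Plin3 at 0.29 (adjusted p = 0.0507), so that it was no longer called, and left Plin2 at 0.94 (adjusted p = 1.52e-05). The authors' deposited table gave 2 of the 32 genes as higher and 0 as lower in Neuro2a, Plin2 at 0.95 and Plin3 at 0.30 on the log2 scale.

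Most of the other 30 genes, though not all, differed in level between the library sets. A fit with the replicate number as a block called 10 of the 32 higher and 2 lower, against 19.9% and 11.4% of all tested genes. With this pairing Hmgcs1, Idi1, Sqle, Msmo1, Nsdhl, Hsd17b7, Insig1 and Fasn rose beside Plin2 and Plin3, with log2 changes from 0.17 in Fasn to 0.63 in Hsd17b7. Srebf1 was lower by the same fit, at -0.30 (adjusted p = 0.0363), and so was Scd2, at -0.50 (adjusted p = 0.00185). With library set as a covariate, which also called Mvd and Fdft1 higher, the counts were 12 higher and 2 lower, against 25% and 14.5% of all tested genes. In some of these genes, but not in Plin2 or Plin3, the change differed between the sets, as follows.

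**Figure D1:**
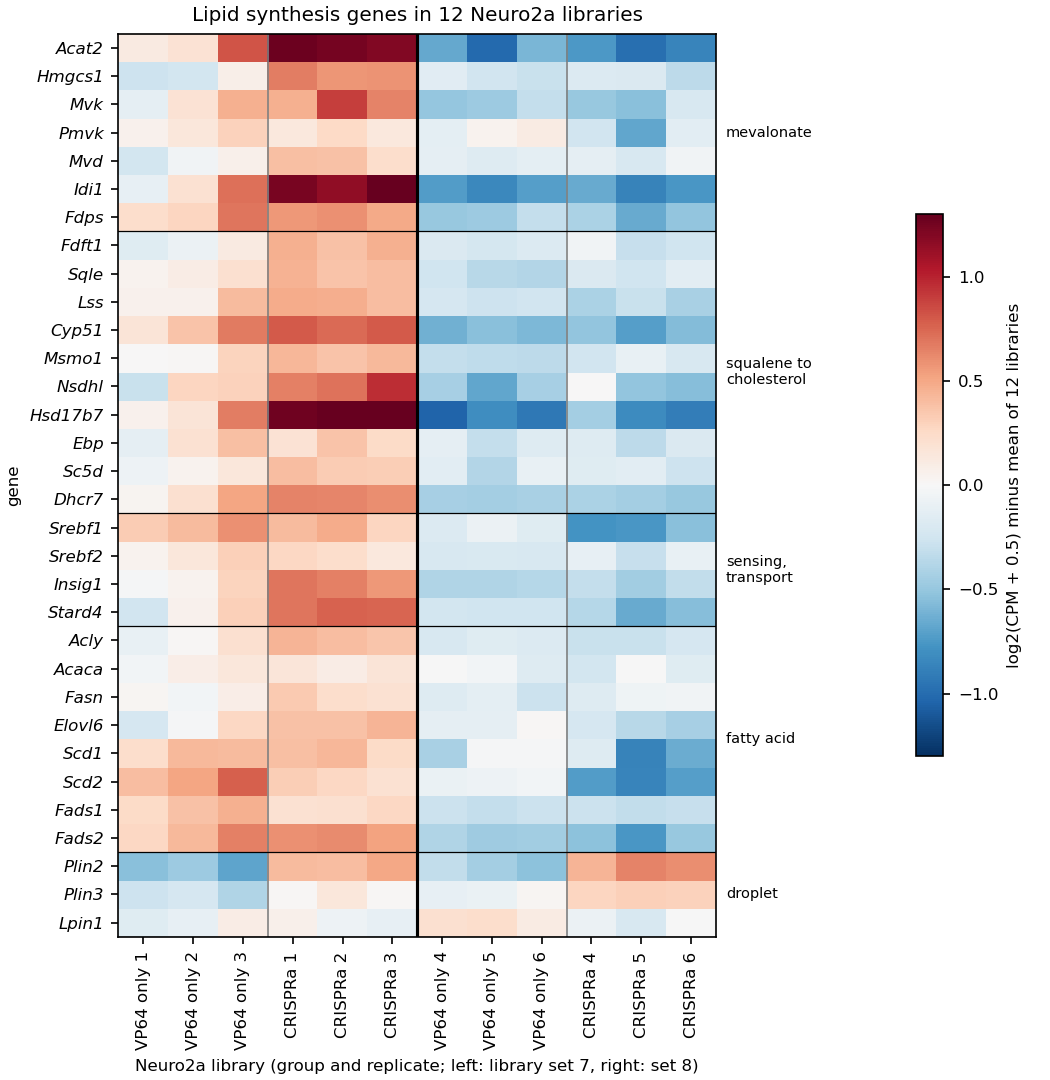
Level of each of the 32 genes (rows, grouped by role) in the 12 Neuro2a libraries (columns), as log2(CPM + 0.5) minus the gene's mean over the 12 libraries; red is above and blue below that mean, and the black line parts library set 7 (left) from set 8 (right). The sterol steps are reddest in the 3 CRISPRa libraries of set 7, VP64-only replicate 3 stands between these and replicates 1 and 2 in most of them, and Plin2 and Plin3 follow the guide plasmid in both sets.

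Within set 7 (3 CRISPRa against 3 VP64-only libraries, spread estimated over all 12), 21 of the 32 genes were higher and 2 lower, against 29.7% and 17% of all tested genes. Their median change was 0.33, and that of all genes 0.09. All 17 sterol steps had a value above 0 and 14 of them passed the test, with a median of 0.37. Within set 8, 3 genes were higher and 6 lower, against 14.4% and 10.4% of all genes, and the median of the 32 was -0.01. Of the 17 sterol steps 1 rose and 1 fell there, and their median change was -0.00.

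The difference between the sets was tested itself, as the change in set 8 minus the change in set 7. In 16 of the 32 genes it was below 0 and past the threshold, and in 0 it was above 0 and past it, against 12.3% and 9.42% of all tested genes. The 17 sterol steps all had a value below 0 and 9 of them passed the test. The summed level of the 17 was 1714, 1676 and 1686 CPM in CRISPRa and 1133, 1218 and 1488 CPM in VP64 only of set 7. In set 8 the sums were 904, 848 and 872 CPM in CRISPRa and 882, 856 and 878 CPM in VP64 only. The groups of set 7 thus did not overlap in this sum, those of set 8 did, and every library of set 8 lay below every library of set 7.

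**Figure D2:**
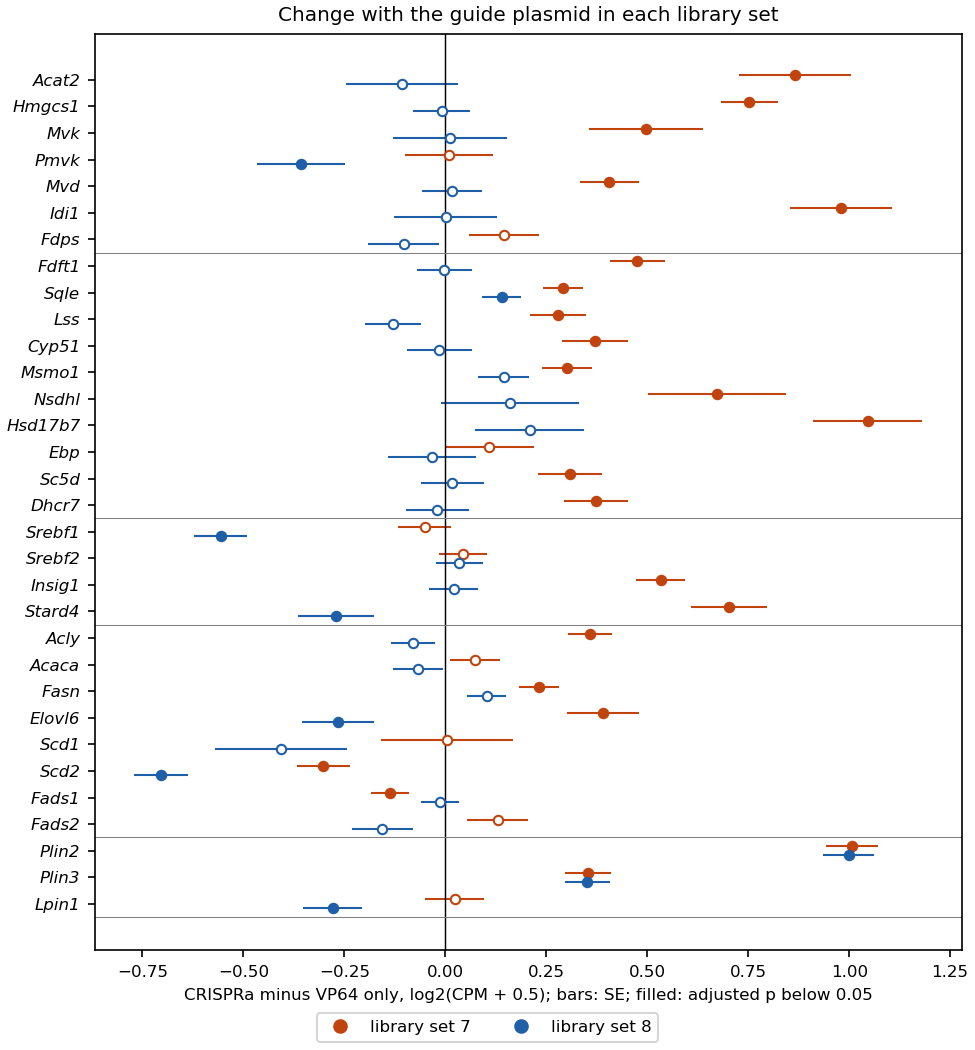
Change with the guide plasmid (x axis, log2(CPM + 0.5), CRISPRa minus VP64 only) for each of the 32 genes in library set 7 (orange) and set 8 (blue), n = 3 libraries per group and set; bars are the SE of the limma fit and filled points passed an adjusted p of 0.05. Most orange points of the sterol steps lie to the right of their blue partners, the points of Plin2 and of Plin3 coincide, and Srebf1 and Scd2 lie furthest left in blue.

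In the mevalonate steps, 5 of 7 genes rose in set 7, 1 fell in set 8 and 4 differed between the sets. The shares of all tested genes were 29.7% higher in set 7, 10.4% lower in set 8 and 12.3% below 0 in the difference. Idi1, which encodes isopentenyl diphosphate isomerase, was at 39.9, 49.5 and 71.3 CPM in VP64 only and 102, 96.6 and 111 CPM in CRISPRa of set 7, a rise of 0.98 (SE 0.13, adjusted p = 2.69e-06). Set 8 had 25.8, 24.0 and 26.1 CPM and 27.1, 23.5 and 25.3 CPM (VP64 only first, here and below), with a change of 0.00 (SE 0.13, adjusted p = 0.998). The groups of set 7 did not overlap and those of set 8 did, and the difference between the sets was -0.98 (SE 0.18, adjusted p = 6.05e-04). Such separation was common: over all tested genes the groups did not overlap in 54.2% in set 7 and 38.4% in set 8, next to 21 and 12 of the 32 genes.

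Acat2 encodes the cytosolic thiolase that joins acetyl-CoA units. It was at 21.8, 22.9 and 35.7 CPM without and 49.1, 48.2 and 46.8 CPM with the guide plasmid in set 7, and at 12.4, 9.66 and 13.0 CPM and 11.7, 9.85 and 10.8 CPM in set 8, with separate groups in set 7 and overlapping ones in set 8. It rose by 0.87 (SE 0.14, adjusted p = 3.58e-05) in set 7, stood at -0.11 (SE 0.14, adjusted p = 0.626) in set 8, and the difference was -0.97 (SE 0.20, adjusted p = 0.00145). Acat2 has a near-identical neighbour, Acat3, and how reads with several alignments were counted is not given in the sources used here, so its level is uncertain.

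Hmgcs1 encodes the synthase that makes HMG-CoA. It was at 94.8, 97.2 and 121 CPM in VP64 only and 182, 171 and 172 CPM in CRISPRa of set 7, a rise of 0.75 (SE 0.07, adjusted p = 3.71e-08). The libraries of set 8 had 103, 96.7 and 93.7 CPM and 101, 100.5 and 90.4 CPM, at -0.01 (SE 0.07, adjusted p = 0.943). Its groups separated in set 7 and overlapped in set 8. Set 8 minus set 7, its VP64-only libraries were at -0.08 (SE 0.07, adjusted p = 0.353) and its CRISPRa libraries at -0.85 (SE 0.07, adjusted p = 4.01e-09). The difference between the sets' changes was -0.76 (SE 0.10, adjusted p = 1.89e-05).

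Mvd, the decarboxylase that forms isopentenyl diphosphate, had 32.8, 37.6 and 40.5 CPM in VP64 only and 50.9, 50.6 and 45.5 CPM in CRISPRa of set 7. In set 8 it had 35.6, 34.3 and 35.3 CPM and 35.6, 33.5 and 37.4 CPM. The groups separated in set 7 and overlapped in set 8. The changes were 0.41 and 0.02, and their difference was -0.39 (SE 0.10, adjusted p = 0.0111). Mvk, mevalonate kinase, rose by 0.50 (SE 0.14, adjusted p = 0.00685) in set 7 and had a difference between sets that missed the threshold, -0.48 (SE 0.20, adjusted p = 0.0899). Pmvk, the next kinase, was at 0.01 in set 7 and fell in set 8, -0.36 (SE 0.11, adjusted p = 0.0204). The rise of Mvk was lost under quantile normalisation and without CRISPRa replicate 2 or VP64-only replicate 1 (adjusted p up to 0.0589), and the fall of Pmvk without filter and without CRISPRa replicate 5 or VP64-only replicate 5 or 6 (up to 0.149). Fdps, farnesyl diphosphate synthase, passed in neither set, at 0.14 and -0.10.

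From squalene to cholesterol, 9 of 10 genes rose in set 7, 1 rose in set 8 and 5 differed between the sets. The shares of all tested genes were 29.7% higher in set 7, 14.4% higher in set 8 and 12.3% below 0 in the difference. Hsd17b7, a ketosterol reductase of the demethylation of lanosterol, had the largest change of the 32 in set 7. It was at 17.3, 18.8 and 26.7 CPM in VP64 only and 40.7, 44.1 and 44.2 CPM in CRISPRa, a rise of 1.05 (SE 0.14, adjusted p = 2.82e-06). In set 8 it was at 7.82, 9.32 and 8.47 CPM and 12.1, 9.21 and 8.70 CPM, with overlapping groups and a change of 0.21 (SE 0.14, adjusted p = 0.293). The difference was -0.84 (SE 0.19, adjusted p = 0.00386).

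Fdft1, squalene synthase, was at 72.3, 76.3 and 87.6 CPM without and 111, 105 and 112 CPM with the guide plasmid in set 7, and at 70.7, 69.0 and 71.4 CPM and 78.4, 65.5 and 67.5 CPM in set 8. Lss closes the ring to lanosterol, and its libraries stood at 109.8, 109.7 and 141 CPM and 148, 147 and 139.7 CPM in set 7 and at 90.6, 87.7 and 89.0 CPM and 79.6, 86.2 and 78.7 CPM in set 8. Both genes rose in set 7, Fdft1 by 0.48 and Lss by 0.28, and neither passed in set 8. Their differences between sets were -0.48 (SE 0.10, adjusted p = 0.00127) and -0.41 (SE 0.10, adjusted p = 0.00535). The groups of Fdft1 separated in set 7 and overlapped in set 8. In Lss, VP64-only replicate 3 was above the lowest CRISPRa library of set 7, so these groups overlapped, and in set 8 all CRISPRa libraries were below all VP64-only libraries.

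Cyp51, lanosterol demethylase, was at 182, 210.5 and 260.0 CPM and 282, 270.2 and 282 CPM in VP64 only and CRISPRa of set 7, and at 105, 111 and 108 CPM and 113, 98.6 and 109 CPM in set 8. Dhcr7, which reduces dehydrocholesterol to cholesterol, was at 53.0, 59.7 and 73.6 CPM and 80.9, 80.2 and 78.6 CPM in set 7 and at 38.3, 38.0 and 38.5 CPM and 38.7, 37.9 and 36.6 CPM in set 8. The CRISPRa libraries were highest in set 7 in both genes, and no group of set 8 reached any library of set 7. The differences between the sets' changes were -0.38 (SE 0.12, adjusted p = 0.0211) for Cyp51 and -0.39 (SE 0.11, adjusted p = 0.0160) for Dhcr7. That of Cyp51 was lost in 4 of 19 alternatives, without filter and without CRISPRa replicate 5 or VP64-only replicate 1 or 5 (adjusted p up to 0.1195), and that of Dhcr7 in 1 of 19, without filter (0.0729).

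Sqle, squalene epoxidase, a rate-limiting enzyme of the later pathway, rose by 0.29 (SE 0.05, adjusted p = 5.11e-05) in set 7 and by 0.14 (SE 0.05, adjusted p = 0.0394) in set 8. The call in set 8 was kept in 6 of 14 alternatives. It was lost without filter, under median-of-ratios scaling, quantile normalisation and the replicate block, and without CRISPRa replicate 4 or 6 or VP64-only replicate 5 or 6 (adjusted p up to 0.168). Msmo1 and Nsdhl, which remove methyl groups from the sterol ring, rose in set 7 by 0.30 and 0.67 and had values of 0.14 and 0.16 in set 8 that did not pass. Sc5d, a sterol desaturase, rose in set 7 by 0.31. Ebp, a sterol isomerase, passed in neither set. The difference between sets did not pass for Sqle, Msmo1, Nsdhl, Sc5d or Ebp, with values from -0.51 to -0.14.

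Of the 4 sensing and transport genes, 2 rose in set 7, 2 fell in set 8 and 3 differed between the sets. The shares of all tested genes were 29.7% higher in set 7, 10.4% lower in set 8 and 12.3% below 0 in the difference. Insig1 encodes a retention factor for the SREBP complex and is itself a target of SREBP. It was at 197, 207 and 245 CPM in VP64 only and 324, 316 and 297 CPM in CRISPRa of set 7, a rise of 0.53 (SE 0.06, adjusted p = 4.97e-07). In set 8 the levels were 153, 153 and 155 CPM and 161, 146 and 159.7 CPM, a change of 0.02 (SE 0.06, adjusted p = 0.845). The groups of set 7 were separate, those of set 8 overlapped, and the difference was -0.51 (SE 0.09, adjusted p = 2.62e-04).

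Stard4 encodes a sterol carrier of the cytosol. It was at 45.3, 56.0 and 66.9 CPM without and 87.8, 92.4 and 91.1 CPM with the guide plasmid in set 7, and at 45.6, 44.9 and 44.8 CPM and 41.6, 34.1 and 36.5 CPM in set 8. The groups separated in both sets and in opposite directions, 0.70 (SE 0.09, adjusted p = 4.21e-06) in set 7 and -0.27 (SE 0.09, adjusted p = 0.0404) in set 8, with a difference of -0.97 (SE 0.13, adjusted p = 3.43e-05). The fall in set 8 was kept in 8 of 14 alternatives and lost without filter and without CRISPRa replicate 5 or 6 or any 1 of the VP64-only libraries of set 8 (adjusted p up to 0.169), while the difference was kept in all 19.

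Neither of the 2 transcription factor genes passed the test in set 7. Srebf2 was at 533, 572 and 642 CPM and 623, 605 and 568 CPM in VP64 only and CRISPRa of set 7 and at 449, 452 and 448 CPM and 482, 419.9 and 484 CPM in set 8. Its groups overlapped in both sets, its changes were 0.04 (SE 0.06, adjusted p = 0.580) and 0.04 (SE 0.06, adjusted p = 0.720), and the difference was -0.01 (SE 0.08, adjusted p = 0.961). Srebf1 was at 306, 324 and 367 CPM and 324, 341 and 296 CPM in set 7, with overlapping groups, and at 215, 231 and 218 CPM and 142, 144 and 166 CPM in set 8, where all CRISPRa libraries were lower. It changed by -0.05 (SE 0.07, adjusted p = 0.555) in set 7 and fell in set 8, -0.56 (SE 0.07, adjusted p = 2.66e-06), and the difference was -0.51 (SE 0.09, adjusted p = 6.39e-04). The counts do not tell Srebf1 transcripts from different start sites apart, and mRNA levels say nothing of the cleavage of either protein.

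**Figure D3:**
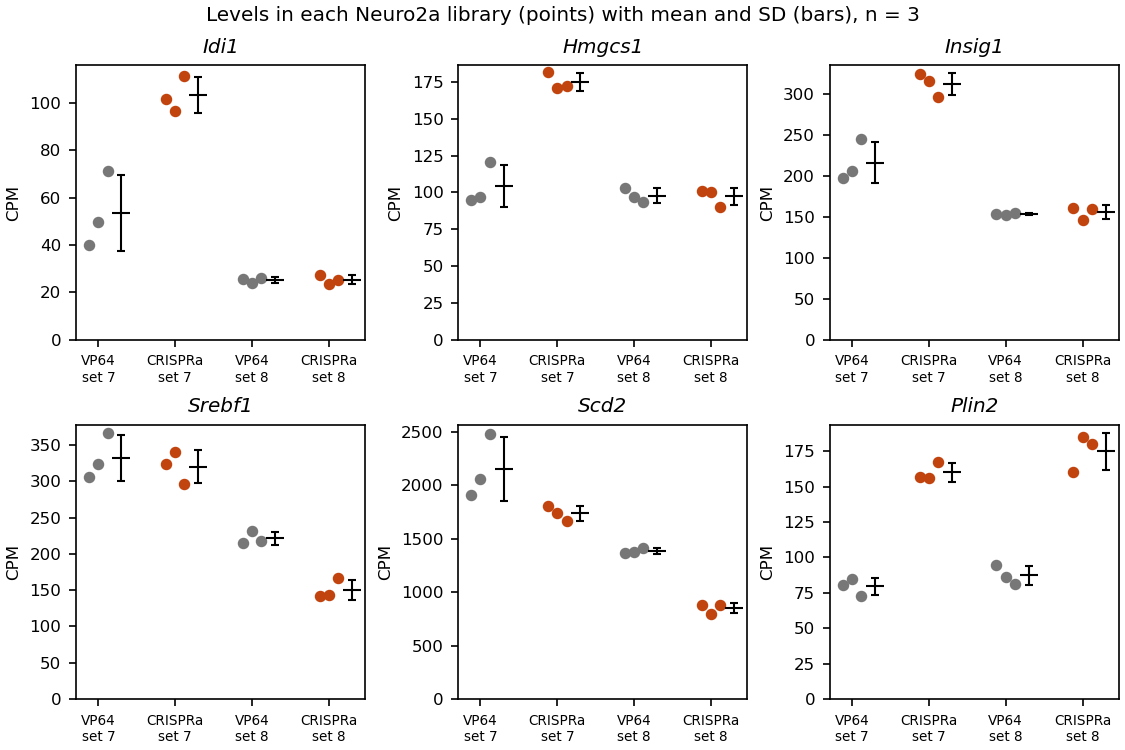
Levels in CPM (y axis, from 0) of 6 of the genes in each Neuro2a library (points; grey, VP64 only; orange, CRISPRa) by library set, with the mean and SD of each group of 3 (bars). Idi1, Hmgcs1 and Insig1 are high in the CRISPRa libraries of set 7 and not in those of set 8, Srebf1 and Scd2 are lowest in the CRISPRa libraries of set 8, and Plin2 is high in CRISPRa libraries of both sets.

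In fatty acid synthesis, elongation and desaturation, 3 of 8 genes rose and 2 fell in set 7, 2 fell in set 8, and 3 differed between the sets. Over all tested genes 29.7% rose and 17% fell in set 7, so the set 7 counts of this role were near that share. In set 8, 10.4% of all tested genes fell, and 12.3% had a difference between sets below 0 past the threshold. Acly, ATP citrate lyase, which supplies cytosolic acetyl-CoA, was at 341, 370.2 and 422 CPM in VP64 only and 497, 482 and 469.7 CPM in CRISPRa of set 7, a rise of 0.36 (SE 0.05, adjusted p = 1.74e-05). In set 8 it was at 316, 328 and 323 CPM and 299, 299.8 and 315 CPM, at -0.08 (SE 0.05, adjusted p = 0.308). The groups of set 7 were separate, all CRISPRa libraries of set 8 were below its VP64-only libraries without passing the test, and the difference was -0.44 (SE 0.08, adjusted p = 3.94e-04).

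Elovl6, which lengthens palmitate, was at 38.5, 44.2 and 54.3 CPM and 58.6, 58.5 and 61.2 CPM in VP64 only and CRISPRa of set 7, and at 41.3, 41.2 and 45.4 CPM and 38.4, 34.8 and 33.1 CPM in set 8. It rose by 0.39 in set 7 and fell in set 8, -0.27 (SE 0.09, adjusted p = 0.0344), with a difference of -0.66 (SE 0.13, adjusted p = 9.26e-04). The fall in set 8 was likewise kept in 8 of 14 alternatives and lost in the same ones as that of Stard4 (adjusted p up to 0.139), and the difference was kept in all 19. Fasn, fatty acid synthase, rose by 0.23 (SE 0.05, adjusted p = 5.84e-04) in set 7 and stood at 0.10 in set 8, with a difference that did not pass. Acaca, acetyl-CoA carboxylase, passed in neither set.

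Scd2 encodes the main stearoyl-CoA desaturase of brain. It was at 1915, 2063 and 2486 CPM in VP64 only and 1808, 1740 and 1664 CPM in CRISPRa of set 7, and at 1363, 1380 and 1415 CPM and 877, 799 and 879.7 CPM in set 8. CRISPRa libraries were below VP64-only libraries in each set, with changes of -0.30 (SE 0.07, adjusted p = 8.25e-04) and -0.70 (SE 0.07, adjusted p = 9.65e-08), and the difference was -0.40 (SE 0.09, adjusted p = 0.00428). Under quantile normalisation the change in set 7 was -0.11 (adjusted p = 0.253) and not called, while the difference was kept in all 19 alternatives. Scd1 was below 10 CPM in all 12 libraries and passed in neither set. Of the desaturases of polyunsaturated fatty acids, Fads1 fell in set 7, -0.14 (SE 0.05, adjusted p = 0.0208), and Fads2 passed in neither set. The call of Fads1 was lost in 5 of 14 alternatives, without filter and without CRISPRa replicate 1 or 2 or VP64-only replicate 2 or 3 (adjusted p up to 0.137).

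Lpin1, a phosphatidate phosphatase, was at 40.6, 42.1 and 48.6 CPM and 47.6, 43.5 and 42.2 CPM in VP64 only and CRISPRa of set 7. Set 8 held it at 52.7, 53.4 and 49.1 CPM and 43.1, 39.3 and 45.4 CPM. Its groups overlapped in set 7 and separated in set 8, with a change of -0.28 (SE 0.07, adjusted p = 0.00762), and the difference was -0.30 (SE 0.10, adjusted p = 0.0411). That difference was kept in only 7 of 19 alternatives. It was lost without filter, under median-of-ratios scaling, quantile normalisation and the replicate block, and without CRISPRa replicate 1, 2, 4 or 5 or VP64-only replicate 1, 2, 4 or 5 (adjusted p up to 0.118). By role, the 3 lipid droplet and phosphatidate genes therefore comprised 2 that rose in both sets, Plin2 and Plin3, and 1 that fell in set 8. The shares of all tested genes were 29.7% higher in set 7, and 14.4% higher and 10.4% lower in set 8.

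VP64-only replicate 3, a library of set 7, was the highest of its 3 libraries in all 17 sterol steps, while it was the highest in 37.7% of all tested genes. Its levels of the 17 were 1.10 to 1.60 times the mean of replicates 1 and 2, with a median of 1.28 against 1.00 over all tested genes. Without it, 23 of the 32 genes were higher and 1 lower in set 7, and the difference between sets was below 0 in 22 genes past the threshold. Leaving out any 1 of the other Neuro2a libraries gave 14 to 18 genes past the threshold for the difference, in either direction. Leaving out the library highest in the sterol steps lowers their VP64-only level. Larger rises of these genes in set 7 follow from that choice and are no separate evidence for them. Without replicate 3, Idi1 rose in set 7 by 1.20 (adjusted p = 1.77e-09) and Hmgcs1 by 0.86 (adjusted p = 3.78e-10). Fads1 no longer passed, at -0.09 (adjusted p = 0.137), and Scd2 stood at -0.19 (adjusted p = 0.00364). The counts of genes called over both sets were 2 higher and 0 lower with or without this library.

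Each group was also compared between the sets, since a change with the guide plasmid rests on the level without it. In VP64-only libraries 2 of the 32 genes were higher and 23 lower in set 8 than in set 7, against 19.9% and 25.9% of all tested genes. The medians were -0.42 for the 32 genes and -0.03 for all tested genes. In CRISPRa libraries 1 of the 32 was higher and 29 were lower, against 21.3% and 33.4% of all tested genes, with medians of -0.78 and -0.08. All 17 sterol steps were lower in set 8 with the guide plasmid, and 13 without it. In VP64 only, the falls reached -1.22 in Hsd17b7, -1.14 in Acat2, -1.03 in Idi1 and -0.99 in Cyp51. The 2 genes higher in set 8 without the guide plasmid were Plin3 (0.24) and Lpin1 (0.24), and with it Plin3 (0.24) alone.

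Library set moved with other measures too. The sadCas9-VP64 transcript was 2498 to 2646 CPM without the guide plasmid in set 7 and 318 to 369.8 CPM in set 8. The summed level of 8 sympathetic neuroblastoma markers was 805 to 934 CPM in set 7 and 672 to 765 CPM in set 8. Within set 7, the sum of 6 neuronal markers was 362 to 379 CPM in CRISPRa and 430 to 442 CPM in VP64 only, and that of 5 measured vascular markers 78.0 to 83.8 CPM and 124 to 146 CPM. In set 8 the neuronal sums overlapped, and the vascular sum went the other way, 128 to 140 CPM in CRISPRa and 115 to 124 CPM in VP64 only. Most of the vascular sum was Pdgfrb, at 70.7 to 141 CPM over all Neuro2a libraries. Pecam1 was at no more than 8.98 CPM, and Flt1, Rgs5 and Vtn at no more than 0.448 CPM, so the sum does not measure vascular cells. The sum of 8 measured astrocyte markers was 180 to 225 CPM in CRISPRa and 232 to 271 CPM in VP64 only of set 7, with Aqp4 and Slc1a3 at no more than 0.0624 CPM, and in set 8 these groups overlapped. The sum of 3 measured oligodendrocyte precursor markers was higher in CRISPRa than in VP64 only of set 7, 110 to 140 CPM and 83.8 to 95.4 CPM. In set 8 it was 63.5 to 70.7 CPM and 70.1 to 79.6 CPM. Most of it was C1ql1, at 46.0 to 119 CPM, with Pdgfra at 11.7 to 19.1 and Cspg4 at 3.79 to 7.92 CPM. Olig1, Olig2 and Gpr17 of this list were not measured in Neuro2a. The sum of 8 measured oligodendrocyte markers was 13.0 to 15.8 CPM in CRISPRa and 8.55 to 11.7 CPM in VP64 only of set 7, with Mog at no more than 0.190 CPM. In set 8 the groups overlapped in this sum. P2ry12, a defining gene of microglia, was at no more than 0.0600 CPM in any Neuro2a library. The part of these in the changes of the 32 genes was not tested.

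The 250 bases before the annotated start were read for 6 genes, because Hsd17b7, Idi1, Acat2 and Hmgcs1 had the 4 largest rises of the sterol steps in set 7, Insig1 is the SREBP target that senses sterol, and Plin2 rose in both sets. They are given 5′ to 3′ on the gene's strand from RefSeq promoters on GRCm38.p6. Capitals mark the CCAAT box, which binds NF-Y, as CCAAT or its reverse complement ATTGG, and the sterol regulatory element-like letters CACNCCAC on either strand.
Hsd17b7 (chr1:169969206-169969455, minus strand): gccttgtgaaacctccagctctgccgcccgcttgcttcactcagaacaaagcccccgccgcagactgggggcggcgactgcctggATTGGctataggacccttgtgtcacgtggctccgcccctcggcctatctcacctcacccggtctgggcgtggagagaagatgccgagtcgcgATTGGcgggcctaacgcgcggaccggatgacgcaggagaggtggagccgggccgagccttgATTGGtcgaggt
Idi1 (chr13:8885356-8885605, plus strand): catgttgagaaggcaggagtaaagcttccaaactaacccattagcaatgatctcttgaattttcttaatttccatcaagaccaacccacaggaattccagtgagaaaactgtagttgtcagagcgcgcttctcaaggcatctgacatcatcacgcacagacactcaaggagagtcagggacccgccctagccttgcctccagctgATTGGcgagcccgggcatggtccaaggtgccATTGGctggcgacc
Acat2 (chr17:12960726-12960975, minus strand): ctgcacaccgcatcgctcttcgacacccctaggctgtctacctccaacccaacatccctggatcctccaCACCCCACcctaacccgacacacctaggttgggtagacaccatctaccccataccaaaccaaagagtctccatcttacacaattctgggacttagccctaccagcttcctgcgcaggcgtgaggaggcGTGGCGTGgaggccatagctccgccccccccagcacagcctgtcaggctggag
Hmgcs1 (chr13:119690101-119690350, plus strand): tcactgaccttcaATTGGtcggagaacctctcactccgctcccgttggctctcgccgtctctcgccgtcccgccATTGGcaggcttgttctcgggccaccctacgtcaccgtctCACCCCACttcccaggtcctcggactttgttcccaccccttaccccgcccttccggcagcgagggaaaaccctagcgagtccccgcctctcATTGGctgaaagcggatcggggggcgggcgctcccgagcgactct
Insig1 (chr5:28071162-28071411, plus strand): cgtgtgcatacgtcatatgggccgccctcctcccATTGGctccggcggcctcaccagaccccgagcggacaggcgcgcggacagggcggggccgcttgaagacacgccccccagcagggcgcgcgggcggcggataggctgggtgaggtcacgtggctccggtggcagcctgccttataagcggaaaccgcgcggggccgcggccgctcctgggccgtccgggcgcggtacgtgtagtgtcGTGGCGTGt
Plin2 (chr4:86670060-86670309, minus strand): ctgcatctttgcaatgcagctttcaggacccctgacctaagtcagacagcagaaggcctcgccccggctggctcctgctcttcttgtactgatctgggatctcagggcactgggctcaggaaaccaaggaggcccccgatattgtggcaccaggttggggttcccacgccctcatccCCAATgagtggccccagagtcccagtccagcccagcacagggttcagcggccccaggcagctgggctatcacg

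The letters were searched on both strands in RefSeq windows of 300 bases, 250 before and 50 after each start, of which 25 of the 32 genes had at least 1. CCAAT was found in 20 of the 25 genes (80%) and in 41.1% of all 27025 genes of the table. The GC box GGGCGG was found in 20 (80%) against 38.2%, and the E-box CACGTG in 5 (20%) against 8.09%. Of the 14 sterol steps with a window, 13 held CCAAT and 13 held GGGCGG. The letters CACNCCAC were found in 3 genes, Acat2, Hmgcs1 and Insig1 (12%), against 7.12%, and were searched after a longer form, TCACNCCAC, had been found in Hmgcs1 alone (4.0% against 1.436%). No match of one motif shared bases with a match of another among these genes. Such matches describe the letters in the window and are not binding sites.

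**Figure D4:**
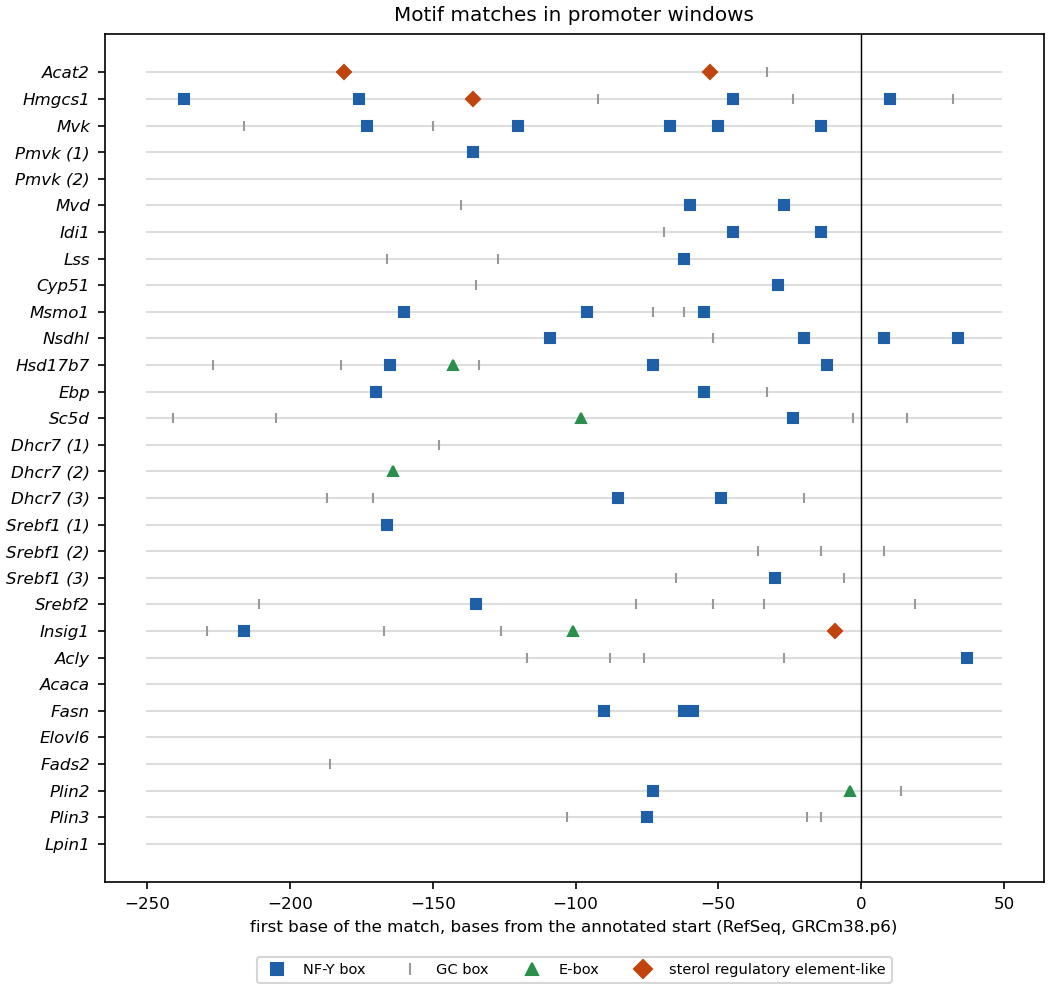
Position of each motif match (x axis, bases from the annotated start of the gene, 0 at the start) in the promoter windows of the 25 matched genes; genes with several annotated starts have a row for each, numbered in brackets. NF-Y boxes (squares) are present in 13 of the 14 sterol steps with a window, and the 4 sterol regulatory element-like matches (diamonds) are in Acat2, Hmgcs1 and Insig1.

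Other genes of these pathways were taken from lists. Of 15 tested genes of other sterol synthesis and uptake, 1 rose and 1 fell over both sets, against 10% and 5.02% of all tested genes. Their median was -0.02. The gene that fell was Lbr, a sterol reductase of the nuclear envelope, at -0.24 (adjusted p = 0.00458). In set 7, 4 rose and 4 fell, against 29.7% and 17% of all tested genes, and the difference between sets passed for 5 genes of this list lower and 2 higher, against 12.3% and 9.42%.

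Of 12 genes of SREBP processing, 0 passed over both sets, 1 rose and 6 fell in set 7, against 29.7% and 17% of all tested genes, and 0 rose and 3 fell in set 8, against 14.4% and 10.4%. Scap, which escorts SREBP to the Golgi, was at -0.02 (adjusted p = 0.871) in set 7 and 0.08 (adjusted p = 0.399) in set 8. Of 10 tested liver X receptor targets and efflux genes, which act when sterol is high, 2 fell and 0 rose over both sets, against 5.02% and 10% of all tested genes: Abca1, a cholesterol exporter, at -0.77 (adjusted p = 0.00113), and Cyp27a1, a sterol hydroxylase, at -0.65 (adjusted p = 0.0283). Abca1 was at -1.10 (adjusted p = 5.34e-09) in set 7 and -0.43 (adjusted p = 0.00132) in set 8, and the difference was 0.67 (adjusted p = 7.55e-04). In set 7, 2 of these 10 genes rose, Nr1h3, which encodes a liver X receptor, at 0.63 (adjusted p = 0.00529), and Lpcat3, an acyltransferase of phospholipids, at 0.30 (adjusted p = 0.00113), and 2 fell, Abca1 and Cyp27a1.

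Of 21 tested genes of other fatty acid synthesis, 2 rose and 2 fell over both sets, led by Mcat and Oxsm of mitochondrial fatty acid synthesis, at 0.43 (adjusted p = 9.23e-04) and 0.58 (adjusted p = 0.0303). Of 15 tested triglyceride and other lipid droplet genes 2 rose, the acyltransferase genes Gpat4 at 0.16 (adjusted p = 0.0194) and Agpat2 at 0.32 (adjusted p = 0.0204). Of 18 tested genes of fatty acid oxidation 2 fell, the dehydrogenase genes Hadh at -0.33 (adjusted p = 0.00230) and Acadm at -0.26 (adjusted p = 0.0418). The medians of these 3 lists were -0.02, 0.09 and 0.02, next to 0.06 over all tested genes, of which 10% rose and 5.02% fell.

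In the nuclei 31 of the 32 genes passed the filter on low values and Plin2 did not. Of these, 0 passed the test between Het and WT, against 0% of 18967 tested genes, 0 between Het CRISPRa and Het, against 0.0422%, and 0 between Het CRISPRa and WT, against 0.00527%. Over all genes limma gave unadjusted p-values under 0.05 in 951, 996 and 335 genes. The median changes of the 31 genes were -0.08, 0.04 and -0.06, next to -0.05, 0.04 and -0.02 over all genes. The 3 comparisons share groups, so their values are not independent. The authors' deposited tables also gave 0 of the 32 as changed in each.

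The libraries of the groups did not overlap in 5 of the 31 tested genes between Het and WT, against 10.7% of all tested genes, in 3 between Het CRISPRa and Het, against 9.98%, and in 3 between Het CRISPRa and WT, against 7.13%. Idi1 had the smallest unadjusted p between Het and WT, with 10.2, 11.6 and 13.1 CPM in WT, 7.23, 6.06 and 9.25 CPM in Het and 10.3, 10.0 and 7.30 CPM in Het CRISPRa. The Het libraries were all below the WT libraries and the Het CRISPRa libraries spanned both, with a difference of -0.61 (SE 0.20, adjusted p = 0.875) for Het minus WT that did not pass. Pmvk was at 36.6, 31.7 and 28.1 CPM in WT, 48.0, 39.7 and 37.7 CPM in Het and 30.0, 26.2 and 37.6 CPM in Het CRISPRa. Its Het libraries were above both other groups, with 0.38 (SE 0.16, adjusted p = 0.875) for Het minus WT and -0.42 (SE 0.16, adjusted p = 0.810) for Het CRISPRa minus Het, neither of which passed. Scd2 was at 68.9, 79.5 and 100.5 CPM, 52.2, 66.6 and 75.3 CPM and 77.0, 80.7 and 63.8 CPM in the 3 groups, which overlapped, with -0.36 (SE 0.16, adjusted p = 0.875) for Het minus WT.

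Hmgcs1 was at 44.9, 52.0 and 48.9 CPM in WT, 37.8, 40.5 and 45.4 CPM in Het and 44.7, 55.5 and 54.1 CPM in Het CRISPRa, with 0.31 (SE 0.12, adjusted p = 0.810) for Het CRISPRa minus Het. Mvd was at 14.97, 14.6 and 16.3 CPM, 27.0, 15.8 and 15.4 CPM and 10.97, 14.4 and 15.1 CPM, where Het replicate 1 stood far above the other 8 libraries, with -0.47 (SE 0.21, adjusted p = 0.810) for the same difference. In Mvd all Het CRISPRa libraries were below all Het libraries, and in Hmgcs1 they overlapped. Neither passed the test. Between Het CRISPRa and WT the smallest p-values were those of Scd1, -0.57 (SE 0.30, adjusted p = 1.00), Acat2, -0.21 (SE 0.12, adjusted p = 1.00), and Idi1, -0.33 (SE 0.20, adjusted p = 1.00). Scd1 was at 3.04, 4.61 and 4.25 CPM in WT, 2.79, 2.85 and 2.64 CPM in Het and 3.56, 3.10 and 1.28 CPM in Het CRISPRa, and Acat2 at 34.1, 32.3 and 28.7 CPM, 26.9, 28.3 and 25.6 CPM and 28.5, 27.3 and 26.2 CPM. In Acat2 every Het and Het CRISPRa library was below every WT library, and in Scd1 the lowest library was a Het CRISPRa one.

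The summed level of the 17 sterol steps was 463 to 536 CPM over the 9 nuclei libraries, a range in which all 3 groups overlapped. The sadCas9-VP64 transcript was at 4.09 to 7.12 CPM in the 3 Het CRISPRa libraries and listed at 0 in WT and Het. The sum of 9 oligodendrocyte markers, from cells with high sterol synthesis, was 102 to 124 CPM in WT, 102 to 120.0 CPM in Het and 101 to 109.7 CPM in Het CRISPRa, and that of 9 astrocyte markers 35.3 to 53.6 CPM over all libraries. In such bulk samples fewer cells of a type and less RNA per cell cannot be told apart.

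**Figure D5:**
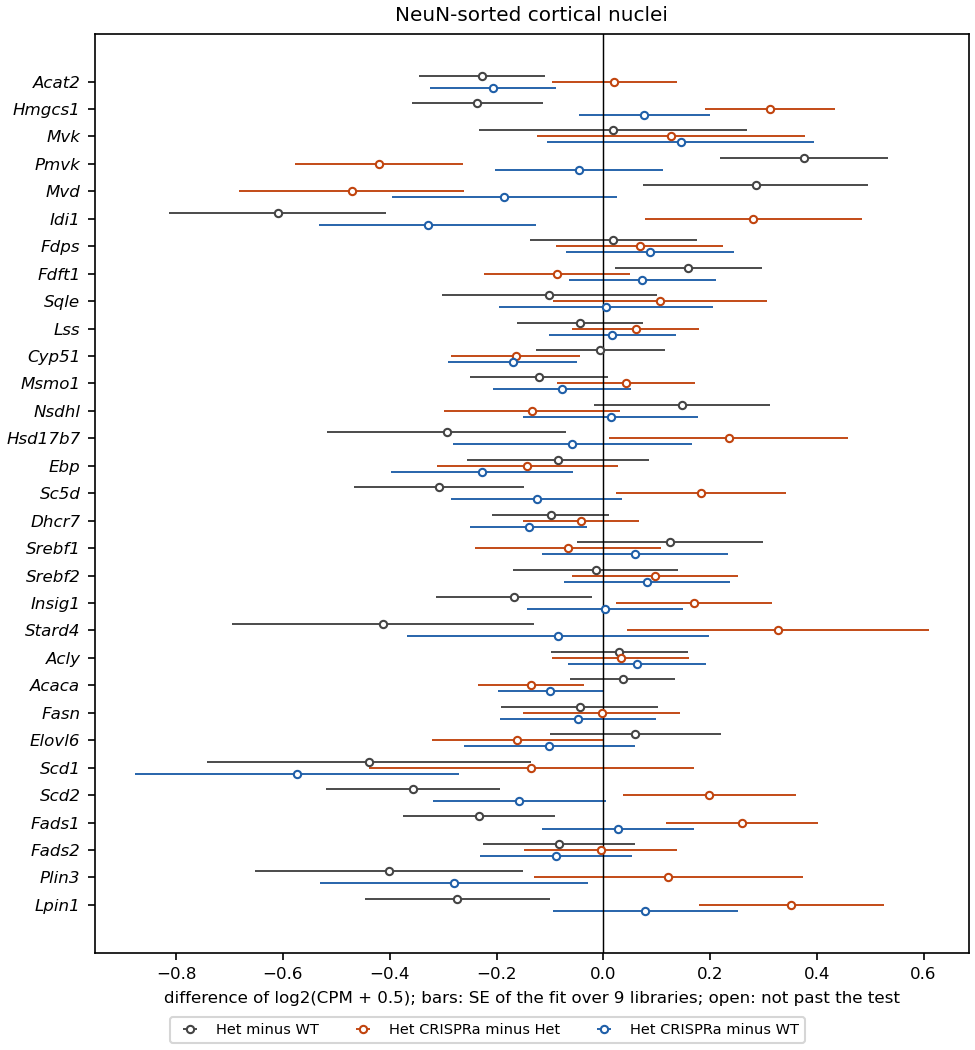
Differences in log2(CPM + 0.5) (x axis) of the 31 tested genes in sorted cortical nuclei for Het minus WT (grey), Het CRISPRa minus Het (orange) and Het CRISPRa minus WT (blue), 3 libraries per group, with the SE of the fit over 9 libraries; all points are open because none passed the test. Values lie between -0.61 (Idi1, Het minus WT) and 0.38 (Pmvk, Het minus WT), and the 3 comparisons share groups.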

How the data were processed

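The 32 genes, their roles and the other gene lists were chosen with earlier results of these data known. Levels are CPM per the file headers of the tables deposited by the authors, which sum to 1e+06 per library. Per the submitters' processing notes, mm39 and GRCm39 were the builds and R 4.4, DESeq2 1.44, featureCounts and STAR 2.7.8a the tools; strandedness, multi-mapping treatment and annotation release are not given in the sources used here. The comparison tables the authors deposited hold log2 fold changes and their SE, beside a p-value and an adjusted p-value. Their sign for WT against Het was turned to Het minus WT.

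At the most frequent value above 0 taken as 1 read, 70.8 to 73.2% of Neuro2a values and 79.9 to 82.4% of mouse values above 0 were whole reads within 0.01, so count models were not run. limma 3.58.1 (R 4.3.3, eBayes with trend) was fitted to log2(CPM + 0.5) for genes at 0.5 CPM or more in at least 6 Neuro2a or 3 mouse libraries (14398 and 18967 genes), with Benjamini-Hochberg adjustment over all of them and 0.05 as the threshold. The comparison over both library sets had 2 groups, those within and between sets 4 groups of 3, and all 9 mouse libraries were fitted together. On simulated data with 100 genes changed at each fold, the fit called 97% of 2-fold and 84% of 1.5-fold changes for CRISPRa minus VP64 only (14475 genes) and 88% and 54% for Het CRISPRa minus Het (18668 genes). The fit also called 12 and 6 unchanged genes. The simulated libraries had the same dispersion for every gene and no difference between library sets. These shares therefore do not describe genes whose level differs between the sets. Fold changes on this scale understate those of low genes. Python 3.11.15 with pandas 2.3.3 and matplotlib 3.10.9 made summaries and plots.

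Every one of the 32 genes was named. Those past the threshold over both sets or in the difference between sets, with Srebf1, Srebf2 and Insig1, were given library by library. In mice, where none passed, the 3 with the smallest unadjusted p per comparison were given. Other lists were given by counts, with at most 4 named genes past the threshold and none for some lists. Scap, which passed in neither set, was named outside this rule. No 2 libraries of a group were alike within counting noise (chi-square per degree of freedom 2.82 to 50.3). Same-numbered Neuro2a libraries deviated together from their group means (r = 0.456 to 0.663 across genes), but not from the means of their group and set (r = -0.165 to 0.0813), so the shared part follows the library set. Exons of Fdps overlap another annotated gene on the same strand by 26.7%, and those of Fdft1 (18.3%) and Hmgcs1 (12.1%) one on the opposite strand, so their reads may be shared. Some genes of the other lists are not reported here by name.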

Additional observations from a re-analysis of the deposited data

Results flagged for a closer look

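Hmgcs1 in VP64-only replicate 3 (120.8 CPM) lay far from the other 5 VP64-only libraries, among 64 groups looked at in this way, of which chance alone would flag about 1 in 20.

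The change with the guide plasmid differed between library sets, by the test of the difference itself, in 16 of the 32 genes. The difference in log2(CPM + 0.5), set 8 minus set 7, was -0.97 in Acat2, -0.76 in Hmgcs1, -0.39 in Mvd and -0.98 in Idi1. It was -0.48 in Fdft1, -0.41 in Lss, -0.38 in Cyp51, -0.84 in Hsd17b7 and -0.39 in Dhcr7. It was -0.51 in Srebf1, -0.51 in Insig1 and -0.97 in Stard4, and -0.44 in Acly, -0.66 in Elovl6, -0.40 in Scd2 and -0.30 in Lpin1. The difference of Lpin1 was kept in 7 of 19 alternatives, that of Cyp51 in 15 and that of Dhcr7 in 18.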

How the results depend on the processing

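Over both library sets, the number of the 32 genes past the threshold was 2 in the comparison as reported, 1 under median-of-ratios scaling, 12 with the replicate block and 14 with library set as a covariate. In set 8 it was 9, and 5 when no filter on low values was applied and 31551 genes were tested (the cause was not tested). Leaving out each library in turn gave 2 over both sets, 21 to 24 in set 7, 5 to 9 in set 8, 14 to 22 in the difference between sets, 22 to 26 between the sets in VP64 only, 30 to 31 in CRISPRa, and 0 in each mouse comparison. Counts under the other alternatives (pseudocounts of 0.1 and 1, a filter of 2 CPM, quantile normalisation, only the libraries compared) were within 1.5 times those reported, and no gene past the threshold changed its direction. Median-of-ratios scaling gave 1059 genes higher and 1100 lower of all tested over both sets, next to 1443 and 723 as reported, while the split of the 32 in set 7 was 21 higher and 2 lower either way. With the replicate block set 7 gave 21 higher and 2 lower, set 8 gave 2 higher and 6 lower, and the difference between sets 0 higher and 15 lower. Same-numbered mouse libraries had correlations of -0.140 to 0.570 across genes, so their numbers were not taken as pairs, and the replicate block called 0 of the genes in each mouse comparison. The 3 libraries per group and set limit what small changes can be called.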
